A study of Homo sapiens with 2 samples.

Results

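Epithelial cells of the prostate are held in a luminal or a basal state by small sets of transcription factors. The genes described here are 9 such factors, chosen by symbol from the table of transcript levels: FOXA1, GATA2, GATA3, GRHL2, TP63, SOX2, SOX4, SOX9 and TFAP2A. All 9 were found among the 21382 genes of the table. FOXA1 and GATA2 act at enhancers of luminal cells, whereas TP63 encodes p63, the defining factor of basal cells. GRHL2 maintains epithelial junction genes, TFAP2A and GATA3 act in several epithelia, and SOX2, SOX4 and SOX9 belong to a family linked to progenitor states.

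RNA was sequenced from MDA PCa 2b cells and from RC77 T/E cells, 2 human lines of prostate cancer that had received no treatment, with 1 library per line. MDA PCa 2b was grown in a modified Ham's F-12 medium with serum, cholera toxin, epidermal growth factor, hydrocortisone and insulin. RC77 T/E was grown in a serum-free keratinocyte medium to which bovine pituitary extract and epidermal growth factor were added. The effect of the line and that of its medium therefore cannot be told apart. No difference below has a replicate check, and no p-value is given. Levels are in TPM, a share of all transcripts that is scaled for transcript length and library total and keeps no record of sequencing depth.

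Many deposited values of 1 TPM or more had lost their decimal mark. The mark was put back at every position that gave the mean and the standard error deposited for the same gene. It was certain for FOXA1, GATA2, GATA3 and SOX2. For the other 5 members more than 1 position remained possible, and each possible value is given. For the genes named here the fold between the lines does not depend on the position where both values are above 0, because the mark moves by the same number of places in both. With the lowest position at every gene the values of MDA PCa 2b summed to 751125 TPM and with the highest to 2416346 TPM. For RC77 T/E these sums were 682469 and 2140326 TPM. The highest sums are above the total that the TPM of 1 library can reach, so not all marks lie at the highest position. The lowest position is used for ratios below, and the sums do not show that it is the true one.

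Of the 9 factors, 4 were higher in MDA PCa 2b by 2-fold or more (FOXA1, GATA2, GRHL2 and SOX9) and 2 were higher in RC77 T/E by 2-fold or more (TP63 and SOX4). Ratios here are log2 of RC77 T/E over MDA PCa 2b after adding 1 TPM to each value, which understates the change of low genes. After adding 0.1 TPM, 3 members were higher in RC77 T/E by 2-fold or more (GATA3 added). With centring on the median log2 ratio or upper-quartile scaling the count was also 3 (TFAP2A added). Over the 11624 genes whose mean reached 1 TPM, 20.0% were higher in MDA PCa 2b by 2-fold or more, and 19.4% were higher in RC77 T/E by 2-fold or more. Over all genes of the table, with no such filter, these shares were 11.4% and 11.3%. The members were chosen with earlier results of these data known, so their counts are a description only. A mean of at least 1 TPM was reached by 7 members, including all those past 2-fold after adding 1 TPM. GATA3 and SOX2 fell below it. The median log2 ratio was -1.21 over these 7 members and -0.15 over the 11624 genes. Over all 9 members, without that filter, it was 0.04. Counted by level, 6 members were at or above 1 TPM in MDA PCa 2b against 6 in RC77 T/E, with 5 in both. Over all genes of the table, 49.6% were at or above 1 TPM in MDA PCa 2b against 52.8% in RC77 T/E.

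**Figure D1:**
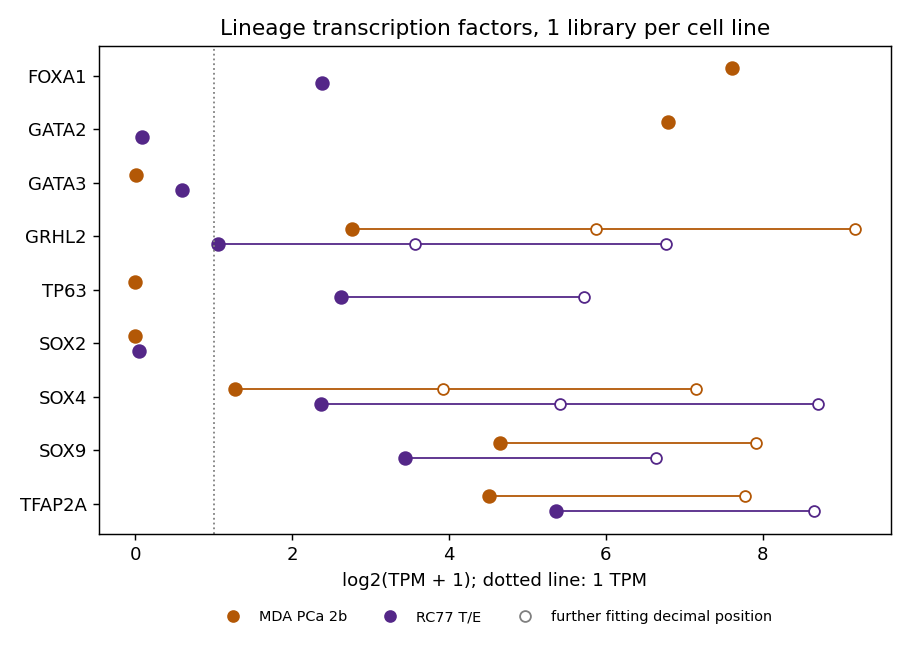
Level of each factor in MDA PCa 2b (brown) and RC77 T/E (purple) as log2(TPM + 1), with 1 library per line. Filled circles are the lowest fitting decimal position and open circles the further ones; FOXA1 and GATA2 lie far to the right in MDA PCa 2b, and TP63 is above 0 only in RC77 T/E.

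FOXA1, a pioneer factor that opens closed chromatin, was the member with the highest certain level. It was at 194 TPM in MDA PCa 2b against 4.19 TPM in RC77 T/E, a 46.2-fold difference and a log2 ratio of -5.23. With every gene at its lowest decimal position, 77 of the 11624 genes had a lower log2 ratio, a rank that other positions could change. The gene (ENSG00000129514) lies on chromosome 14 of GRCh38, from 37589552 to 37596059. Its start overlaps TTC6 on the opposite strand in GENCODE 29, a gene symbol not analysed here.

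GATA2, a zinc finger factor that binds many prostate enhancers, differed more. It was at 110.0 TPM in MDA PCa 2b against 0.0596 TPM in RC77 T/E. That is a plain ratio of 1846 and a log2 ratio of -6.71 after adding 1 TPM (-9.43 after adding 0.1 TPM). After adding 1 TPM, 47 genes had a lower log2 ratio, again with every gene at its lowest position. The plain ratio rests on a value close to 0, whose precision is unknown. GATA2 (ENSG00000179348) lies on chromosome 3, from 128479427 to 128493201. FOXA1 and GATA2 were thus both high in MDA PCa 2b, but only FOXA1 stayed above 1 TPM in RC77 T/E.

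TP63 had the opposite pattern. It was listed at 0 in MDA PCa 2b but stood at 5.17 or 51.7 TPM in RC77 T/E, depending on the decimal mark. The log2 ratio was 2.63 at the lower and 5.72 at the higher position. No fold is given against a value of 0. EEF1A1, a translation factor that every cell uses, was also listed at 0 in MDA PCa 2b beside 2393 TPM in RC77 T/E, so a listed 0 need not mean that a transcript was absent. TP63 (ENSG00000073282) lies on chromosome 3, from 189631389 to 189897276. Its protein-coding transcripts start at 6 places in GENCODE 29, up to 158374 bases apart. Upstream starts give the long TA forms and internal starts the shorter delta-N forms, and the single value per gene does not separate them.

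The promoter windows of these 3 genes are shown because their levels differed in opposite directions between the lines. They come from RefSeq (build GRCh38.p14), are 300 bases long, run 5′ to 3′ on the strand of the gene, and cross an annotated start. RefSeq windows were found for 7 of the 9 members. The window of FOXA1 is chr14:37595200-37595499 on the minus strand, that of GATA2 is chr3:128493152-128493451 on the minus strand, and that of TP63 is chr3:189631139-189631438 on the plus strand and holds only the upstream start. The window of FOXA1 lies inside the gene and does not reach its outer end at 37596059. GATA2 has another RefSeq window at chr3:128488481-128488780, inside the gene, which is not printed. Capitals mark matches to any motif searched, on either strand.
FOXA1: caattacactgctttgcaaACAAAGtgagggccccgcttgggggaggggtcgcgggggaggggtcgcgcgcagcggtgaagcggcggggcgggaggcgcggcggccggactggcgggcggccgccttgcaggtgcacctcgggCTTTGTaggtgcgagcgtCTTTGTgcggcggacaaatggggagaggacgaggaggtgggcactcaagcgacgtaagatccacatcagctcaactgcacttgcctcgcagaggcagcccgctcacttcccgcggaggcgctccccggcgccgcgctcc
GATA2: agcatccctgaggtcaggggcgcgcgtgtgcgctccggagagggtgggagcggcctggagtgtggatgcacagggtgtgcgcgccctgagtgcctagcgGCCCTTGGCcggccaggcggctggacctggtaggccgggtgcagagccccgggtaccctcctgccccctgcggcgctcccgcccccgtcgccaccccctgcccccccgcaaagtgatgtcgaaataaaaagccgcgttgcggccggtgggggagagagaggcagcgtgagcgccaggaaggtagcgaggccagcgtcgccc
TP63: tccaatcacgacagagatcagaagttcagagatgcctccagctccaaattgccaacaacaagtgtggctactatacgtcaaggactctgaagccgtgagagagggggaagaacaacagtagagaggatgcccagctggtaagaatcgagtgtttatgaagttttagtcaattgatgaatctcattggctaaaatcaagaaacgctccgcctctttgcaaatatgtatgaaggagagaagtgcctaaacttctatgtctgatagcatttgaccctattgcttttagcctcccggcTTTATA

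The motifs were searched on both strands of 35114 RefSeq windows. The forkhead motif TGTTTAC stood in 3.42% of all windows, and its other form, TATTTAC, in 2.67%. The GATA motif AGATAA stood in 10.3% of them, and its other form, TGATAA, in 7.53%. The SOX motif ACAATG stood in 10.8%, and its other form, ACAAAG, in 16.1%. The AP-2 motif GCCNNNGGC was found in 23.2%, the grainyhead motif AACCGGTT in 0.134% and the TATA box TATAAA in 11.5%. FOXA1 held 3 matches to ACAAAG, 1 of them on the printed strand and 2 in reverse complement. The printed window of GATA2 held 1 match to the AP-2 motif, and the window not printed held 2. TP63 held 1 match to the TATA box letters, in reverse complement at bases 295 to 300. No printed match overlapped another. A match describes letters only and shows no binding. The windows of FOXA1 and GATA2 had 69.3% and 72.3% G and C, beside a median of 58.7% over all windows. That of TP63 had 43.7%. FOXA1 held 34 CG pairs, GATA2 29 and TP63 7, beside a median of 14.

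The SOX members differed from each other. SOX9, a factor of progenitor and ductal cells, was at 24.1 or 241 TPM in MDA PCa 2b against 9.89 or 98.9 TPM in RC77 T/E, 2.44-fold higher in MDA PCa 2b. At the lowest position the log2 ratio of SOX9 was -1.21, and -1.05 with centring or with upper-quartile scaling, close to the 2-fold limit. SOX4 was 2.95-fold higher in RC77 T/E, with 1.41, 14.1 or 141 TPM in MDA PCa 2b against 4.17, 41.7 or 417 TPM in RC77 T/E. Its log2 ratio was 1.10 at the lowest position, also close to the limit, and 1.55 at the highest. SOX2, a pluripotency factor, was listed at 0 in MDA PCa 2b against 0.0290 TPM in RC77 T/E. SOX2-OT, a long non-coding RNA whose locus contains SOX2 on the same strand, was at 0.00842 and 0.0441 TPM. SOX9-AS1, which overlaps SOX9 on the opposite strand, was at 0.0658 and 0.185 TPM. SOX9 (ENSG00000125398) lies on chromosome 17, from 72121020 to 72126416. SOX4 (ENSG00000124766) lies on chromosome 6, from 21593751 to 21598619, and SOX2 (ENSG00000181449) on chromosome 3, from 181711925 to 181714436.

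TFAP2A, which encodes AP-2 alpha, was 1.84-fold higher in RC77 T/E. It was at 21.8 or 217.7 TPM in MDA PCa 2b against 40.1 or 401 TPM in RC77 T/E. Its log2 ratio of 0.85 lay within 2-fold, and became 1.00 when centred on the median of the 11624 genes. TFAP2A-AS1, on the opposite strand inside the locus, went the other way with 2.40 TPM in MDA PCa 2b against 1.12 TPM in RC77 T/E. GATA3, a luminal factor of breast and urothelium, stayed below 1 TPM in both lines, at 0.00371 TPM in MDA PCa 2b against 0.509 TPM in RC77 T/E. Its plain ratio of 137 rests on a value close to 0. The log2 ratio was 0.59 after adding 1 TPM, within 2-fold, but 2.55 after adding 0.1 TPM. GATA3-AS1, on the opposite strand, was listed at 0 in both. TFAP2A (ENSG00000137203) is found on chromosome 6, from 10393186 to 10419659, and GATA3 (ENSG00000107485) on chromosome 10, from 8045378 to 8075198. The libraries came from a directional kit, but whether quantification used strand is not given in the sources used here, so overlapping transcripts may share reads.

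GRHL2 (ENSG00000083307, chromosome 8, from 101492439 to 101669726) was 5.33-fold higher in MDA PCa 2b. Its level was 5.76, 57.6 or 576 TPM in MDA PCa 2b against 1.08, 10.8 or 108 TPM in RC77 T/E. At every possible position it was at or above 1 TPM in both lines. The log2 ratio was -1.70, -2.31 or -2.40, so it was past 2-fold at each of them.

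**Figure D2:**
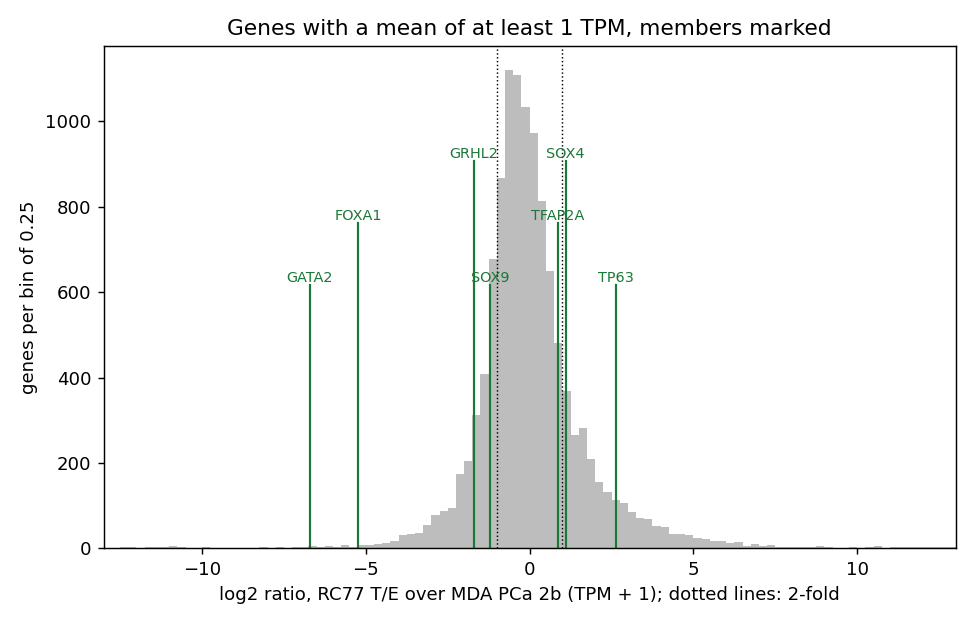
Histogram of the log2 ratio of RC77 T/E over MDA PCa 2b (TPM + 1, lowest decimal position) for the 11624 genes whose mean reached 1 TPM, with lines at the 7 members that reached this mean. GATA2 at -6.71 and FOXA1 at -5.23 lie in the sparse left tail, and TFAP2A at 0.85 lies inside the dotted 2-fold limits.

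Each member was then set beside the other genes of its family. The 6 families hold 37 genes analysed here, of which 18 were at or above 1 TPM in at least 1 line. In each direction 7 of the 37 were past 2-fold, a share of 18.9%. With a pseudocount of 0.1 TPM, 10 were past 2-fold towards RC77 T/E against 7 towards MDA PCa 2b, and with centring or upper-quartile scaling 8 against 6. Over all genes of the table, also unfiltered, 11.3% were higher in RC77 T/E by 2-fold or more and 11.4% in MDA PCa 2b. Over the 11624 genes these shares were 19.4% and 20.0%. Among the 28 relatives that are not members, 5 were higher in RC77 T/E by 2-fold or more and 3 in MDA PCa 2b.

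In the FOXA family, FOXA2, an endoderm factor, was at 0.193 TPM in MDA PCa 2b against 3.88 TPM in RC77 T/E, so that FOXA1 and FOXA2 had similar levels in RC77 T/E only. In the GATA family, GATA6 was 2.89-fold higher in RC77 T/E, with 6.29, 62.9 or 629 TPM there and 2.18, 21.8 or 218 TPM in MDA PCa 2b. At any of these positions GATA6 was the most abundant GATA transcript in RC77 T/E. In MDA PCa 2b its order relative to GATA2 depends on the mark.

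The GRHL genes, which share a DNA-binding domain, differed in both directions. GRHL1 was 2.37-fold higher in MDA PCa 2b, like GRHL2, and GRHL3, a factor of the epidermal barrier, was 3.52-fold higher in RC77 T/E. GRHL1 was at 6.70, 67.0 or 670 TPM in MDA PCa 2b against 2.83, 28.3 or 283 TPM in RC77 T/E. GRHL3 was at 1.68, 16.8 or 168 TPM and at 5.91, 59.1 or 591 TPM. GRHL1 had a log2 ratio of -1.01, close to the limit, which centring moved inside it.

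TP73, a relative of TP63, was at 0.395 TPM in MDA PCa 2b against 1.28 TPM in RC77 T/E, with a log2 ratio of 0.71. Among the 18 SOX genes, 3 were past 2-fold in each direction. Over all genes of the table, 11.3% were so towards RC77 T/E and 11.4% towards MDA PCa 2b. Over the 11624 genes these shares were 19.4% and 20.0%, so the SOX count lay near them. SOX15, expressed in stratified epithelia, was at 0.431 TPM in MDA PCa 2b against 87.0 TPM in RC77 T/E, a 202-fold difference. SOX7 was at 0.256 and 12.3 TPM, in the same direction. SOX12 was at 27.9 TPM in MDA PCa 2b against 10.9 TPM in RC77 T/E, and SOX8 at 1.42 TPM and 0. SOX13 was within 2-fold, with 7.34 or 73.4 TPM and 9.38 or 93.8 TPM. TFAP2C was within 2-fold as well, with 10.2 or 102 TPM in MDA PCa 2b against 7.49 or 74.9 TPM in RC77 T/E.

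**Figure D3:**
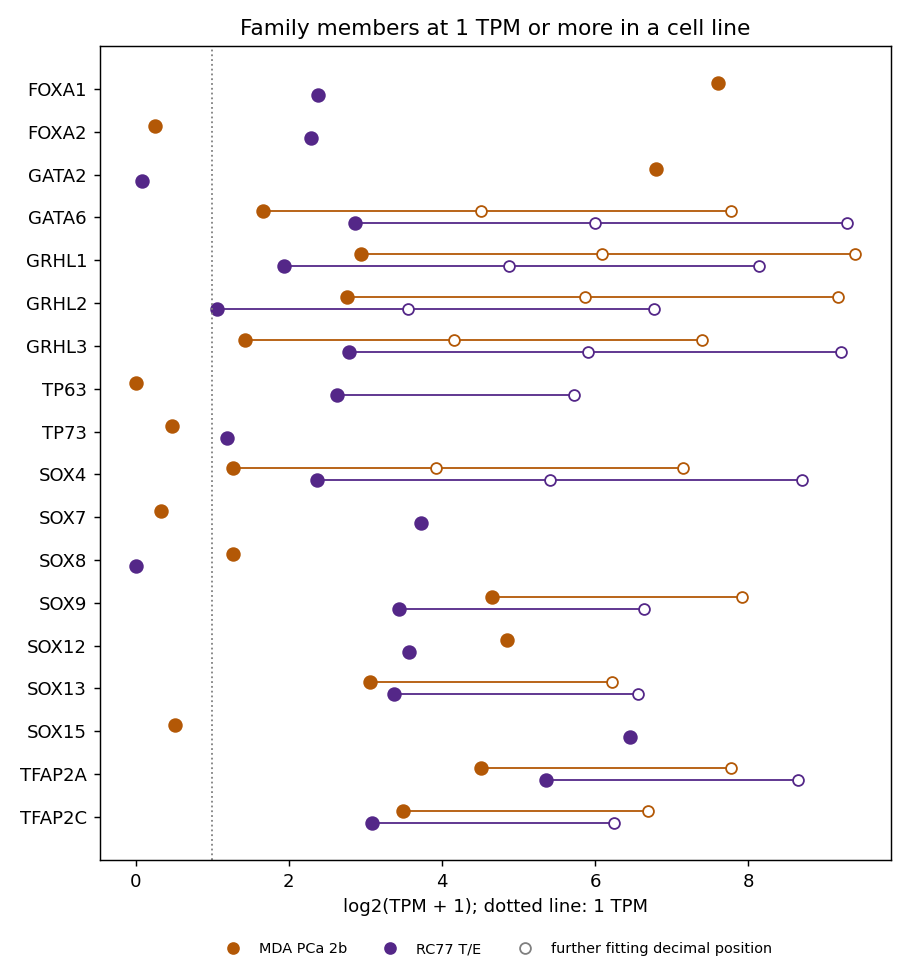
Levels as log2(TPM + 1) of the 18 family members at or above 1 TPM in MDA PCa 2b (brown) or RC77 T/E (purple), 1 library per line; open circles are further fitting decimal positions. SOX15 and SOX7 are far higher in RC77 T/E, and both have a certain decimal mark.

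The gene lists that follow were chosen with earlier results of these data known. Their counts are therefore descriptions and cannot be read as enrichment over the shares printed beside them. All 6 further luminal factors were higher in MDA PCa 2b by 2-fold or more, with a median log2 ratio of -2.84 beside 20.0% and -0.15 over the 11624 genes. SPDEF, an ETS factor of secretory cells, was at 236 TPM in MDA PCa 2b against 0.656 TPM in RC77 T/E. CREB3L4 was 14.7-fold and ELF3 21.7-fold higher in MDA PCa 2b. XBP1, a factor of the secretory pathway, was 2.23-fold higher there. After centring, 4 of the 6 were past 2-fold.

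Of 7 further basal or squamous factors, 3 were higher in RC77 T/E by 2-fold or more and 1 in MDA PCa 2b, with a median log2 ratio of 0.69. The other 3 were within 2-fold. Over the 11624 genes, 19.4% and 20.0% were past 2-fold in these directions, with a median of -0.15. SNAI2 was at 0.102 TPM in MDA PCa 2b against 53.7 TPM in RC77 T/E, and ZNF750, a factor of epidermal differentiation, at 0.0365 and 1.83 TPM. BNC1, a factor of basal keratinocytes, was listed at 0 in MDA PCa 2b but stood at 5.30, 53.0 or 530 TPM in RC77 T/E. OVOL1 was 3.68-fold higher in MDA PCa 2b.

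Of 9 genes that p63 activates in epithelia, 8 were higher in RC77 T/E by 2-fold or more and 0 in MDA PCa 2b, with a median log2 ratio of 4.33. Over the 11624 genes the shares were 19.4% and 20.0%, and the median was -0.15. KRT5, the basal keratin, was at 0.00435 TPM in MDA PCa 2b against 4027 TPM in RC77 T/E. KRT14 was at 37.4 and 3255 TPM, ITGB4 at 4.51 and 463 TPM, and DST at 1.90 and 148 TPM. FRAS1, named after its value was seen, was the gene within 2-fold, at 6.36 and 5.19 TPM. ZNF750 stands in both this list and the basal one, and its mean was below 1 TPM.

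Of 7 genes that GRHL2 activates, 3 were higher in MDA PCa 2b by 2-fold or more and 0 were so in RC77 T/E, with a median log2 ratio of -0.80, beside 20.0%, 19.4% and -0.15 over the 11624 genes. The 3 were CLDN3, at 420.3 TPM in MDA PCa 2b against 0.0217 TPM in RC77 T/E, ERBB3 (8.97-fold) and CLDN4 (9.02-fold). The other 4 were within 2-fold. None of these lists has a test, and the genes of each share the same pair of libraries.

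**Figure D4:**
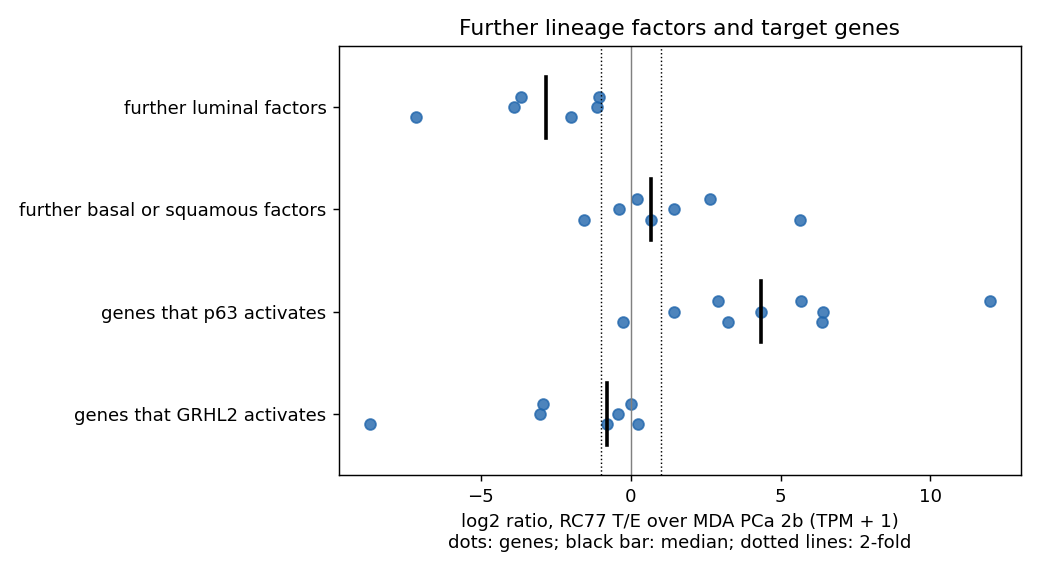
Log2 ratio of RC77 T/E over MDA PCa 2b (TPM + 1, lowest decimal position) for each gene of 4 lists, with the median as a black bar and 2-fold as dotted lines. The 6 further luminal factors all lie left of -1, and 8 of 9 genes that p63 activates lie right of 1.

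Cell type markers were read in the same libraries. Over all genes of the table, 49.6% were at or above 1 TPM in MDA PCa 2b against 52.8% in RC77 T/E. Over the 11624 genes, 19.4% were higher in RC77 T/E by 2-fold or more and 20.0% in MDA PCa 2b. All 5 prostate luminal markers analysed here were at or above 1 TPM in MDA PCa 2b against 2 in RC77 T/E, and KLK3, MSMB and FOLH1 were listed at 0 in RC77 T/E. Their summed level was 5871 to 6461 TPM in MDA PCa 2b, where KLK3 led with 5323 TPM, and 357 to 643 TPM in RC77 T/E, where KRT18 led with 325 TPM. KRT8 and KRT18 were within 2-fold. All 7 basal markers were at or above 1 TPM in RC77 T/E but 4 of them in MDA PCa 2b, and all 7 were higher in RC77 T/E by 2-fold or more. Their sum was 46.0 to 60.5 TPM in MDA PCa 2b, led by KRT14, and 8068 to 8494 TPM in RC77 T/E, led by KRT5. The basal markers share KRT5, KRT14 and ITGB4 with the genes that p63 activates, and TP63 is itself a basal marker.

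None of 5 neuroendocrine or 2 endothelial markers reached 1 TPM in either line. Among 3 leukocyte markers CD14 was at 4.92 TPM in RC77 T/E, while PTPRC was listed at 0 there. Of 4 stromal markers, 1 was at or above 1 TPM in MDA PCa 2b against 2 in RC77 T/E, and 3 were within 2-fold. The remaining one, COL1A1, was at 0.554 TPM in MDA PCa 2b against 8.24 TPM in RC77 T/E. In bulk RNA, fewer cells of a type and less RNA per cell cannot be told apart. The part of these markers in the levels of the 9 factors was not tested.

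By distance in log2(TPM + 1) over the 2 libraries, among 10973 protein-coding genes with a certain mark, the genes nearest to FOXA1 were ABCC4, RPL22L1 and SLC45A3, at distances of 0.50, 0.53 and 0.67. SLC45A3, the gene of prostein, was at 231 TPM in MDA PCa 2b against 2.38 TPM in RC77 T/E. For TP63 the nearest were ZNF486, HEPHL1 and NTNG1 at the lower mark, and DSC3, EREG and TMEM40 at the higher one. DSC3, a desmosomal cadherin of basal cells, was at 0.0234 and 51.6 TPM. With 2 libraries, such nearness describes only these values.

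Within 50 kb of the members, or overlapping them, the table held 12 further loci, of which 5 overlapped a member. MIPOL1, 10427 bases from FOXA1, was at 12.3 TPM in MDA PCa 2b against 1.70 TPM in RC77 T/E, in the same direction as FOXA1. TAF3, 28747 bases from GATA3, was at 3.16 and 2.66 TPM. NCALD, 16816 bases from GRHL2, was at 0.890 and 0.0352 TPM. LINC00518 near TFAP2A was listed at 0 in MDA PCa 2b against 0.568 TPM in RC77 T/E. DNAJB8 near GATA2 was at 0.00899 TPM and 0, while DNAJB8-AS1, MIR5689 and MIR944 were listed at 0 in both.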

How the data were processed

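Total RNA of high integrity from 1 sample of each line went into directional paired-end libraries. The submitters' processing notes name CASAVA, FastQC 0.11.9, Trimmomatic 0.38, Salmon 1.2.0 and build GRCh38. The rows carry XLOC identifiers, a form that Cufflinks writes and those notes do not explain, so how the gene table was made is not clear. The annotation release is not given in the sources used here. The authors deposited 1 table with TPM per locus for both lines, and their mean and standard error. Of 22791 rows, 16284 had 1 fitting decimal position and 6507 had several. The restoration was tested on made-up pairs with known marks. Those pairs were written by the same rule that the restoration assumes, so the test cannot show that the deposited values follow it. The design had assumed plain TPM, so the restoration was added. Each locus was used once, loci of a symbol were summed, and the lowest position was used for ratios, with Python 3.11.15, numpy 2.4.6 and matplotlib 3.10.9. A gene was called past 2-fold at a log2 ratio of at least 1 in size, and no test was run. Alternatives were a pseudocount of 0.1 TPM, centring, upper-quartile scaling, the highest decimal position, the largest locus, no filter, and thresholds of 0.5 and 5 TPM. Members and lists were chosen with earlier results of these data known. A few genes were taken out of the lists before counting and are not reported here. Named genes were all members, family members at 1 TPM or more, up to 4 list genes past 2-fold by highest TPM, neighbours, and the 3 genes nearest to FOXA1 and TP63. KRT8, KRT18, PTPRC, FRAS1 and the genes that every cell uses were named after their values were seen. List genes not named were still counted.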

Additional observations from a re-analysis of the deposited data

How the results depend on the processing

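No paired analysis was possible because each line had 1 library. Of 125 values recomputed under the alternatives, 68 equalled the reported value and 51 more stayed within 1.5 times of it, on the log2 scale for ratios. Many could not move, since each member has 1 locus and 4 have 1 decimal position. Only 45 of the 125 are log2 ratios, which have a sign, and 0 reversed it. Of the alternatives, only centring and upper-quartile scaling could reverse a sign. The smaller pseudocount, the highest decimal position and the largest locus keep the order of the lines, so those values are no check of direction. The other 80 are counts and shares, which have no sign. With a pseudocount of 0.1 TPM, the log2 ratio became 2.55 for GATA3, 5.72 for TP63 and 0.37 for SOX2, since less is added to values close to 0. At the highest decimal position that of TP63 was 5.72, and centring gave 0.19 for SOX2, since it adds the same shift to every gene. At the lowest position and a threshold of 5 TPM, 3 members were counted in RC77 T/E in place of 6, and 5 at the highest position. The count of members higher in RC77 T/E by 2-fold or more was 3 in place of 2 with the smaller pseudocount (GATA3 added), with centring and with upper-quartile scaling (TFAP2A added in both). The count for MDA PCa 2b was 4 under every alternative run. Centring gave 2542 genes higher in RC77 T/E by 2-fold or more and 1880 in MDA PCa 2b, in place of 2250 and 2324. The share of RC77 T/E thus became the larger, 21.9% against 16.2%, and 21.6% against 16.5% with upper-quartile scaling. With every gene at its highest decimal position the share of RC77 T/E was 21.1% against 22.9% for MDA PCa 2b. Sequencing depth is unknown, so the precision of values near 0, such as GATA2 in RC77 T/E, cannot be given.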

Other observations

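Among 20 genes that every cell uses, 15 were within 2-fold between the lines, with a median log2 ratio of 0.00. Over the 11624 genes, 19.4% were higher in RC77 T/E by 2-fold or more and 20.0% in MDA PCa 2b, with a median of -0.15. GAPDH was at 1957 TPM in MDA PCa 2b against 1923 TPM in RC77 T/E, and B2M at 629 and 644 TPM. Of the 20 genes, the 3 higher in MDA PCa 2b by 2-fold or more were RPLP0, RPL13A and EEF2, with log2 ratios of -1.33, -1.82 and -1.23. The 2 in the other direction were ACTB, at 765 and 1836 TPM, and EEF1A1, which was listed at 0 in MDA PCa 2b. These genes were looked at after the lineage factors, and no cause was tested.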
